A study of Mus musculus with 12 samples.

Results

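The genes on either side of Ahnak on mouse chromosome 19 were taken as 1 group and followed across 4 groups of mouse livers. They were the genes with a single symbol in the array annotation whose start lies between 6 and 12 Mb of the chromosome (GRCm38). Ahnak itself, Cox8a and the Slc22a, Fads and Olfr genes of the window were left out. Of 172 window genes on the array 18 were left out in this way, and 154 flanking genes remained, out of 22180 genes measured. The rule used position and these named exclusions, and no measured level or change. It was set with earlier results of these data known. Where a gene had several probe sets, the one with the highest mean signal stood for it. Of the 154 genes, 89 lie before the start of Ahnak (proximal) and 65 after it (distal).

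Each array carried total RNA from the liver of 1 male C57BL/6 mouse. The 4 groups were Ahnak knockout (KO) mice on regular chow, wild-type (WT) mice on regular chow, KO mice on a high-fat diet (HFD, 60% fat) and WT mice on that diet. Every group held 3 mice, and the mice were matched for weight and fed for 8 weeks. The sources used here do not give the age of the mice, how the KO allele was made, which part of Ahnak it removes or any backcrossing. With 3 arrays a group the precision of each value is limited, and p-values rest on the spread between these mice.

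Ahnak encodes a very large scaffold protein found at the plasma membrane and in the cytoplasm. Genes close to a targeted gene are inherited together with it, so the question put to the flanking genes was whether any of them differed between KO and WT livers, on which diet, and how far from Ahnak. The window is dense with genes of many roles. It holds Syvn1, which encodes the ubiquitin ligase HRD1 that marks misfolded proteins of the endoplasmic reticulum (ER) for degradation, and Bscl2, which encodes seipin, a protein that shapes lipid droplets. It also holds the ferritin heavy chain gene Fth1 and the Ms4a family, a cluster of genes for membrane-spanning proteins. Some of these are proteins of leukocytes, such as the B-cell antigen CD20, encoded by Ms4a1.

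The deposited values are log2 signals, with array medians between 5.58 and 5.70, and arrays of 1 group correlated across genes with r between 0.992 and 0.994. On the first principal component, with 32.2% of the variance, the 3 arrays of the WT HFD group had scores of 30.0 to 32.3 and the remaining 9 arrays scores of -18.5 to -3.95. Every difference below that involves the WT HFD group rests on these 3 arrays. The mean log2 signals of the flanking genes ran from 2.78 to 13.37 with a median of 6.69, against a median of 6.17 over all genes. As a mark of dim signal, the 95th percentile of the mean signal of 1105 olfactory receptor genes, which liver does not use, lay at 5.61. At or below this mark were 45 flanking genes, and 109 were above it. Fth1 (13.37), the ribosomal protein fusion gene Fau (12.91), the ER-shaping reticulon gene Rtn3 (12.49), Bscl2 (11.62) and the triokinase gene Tkfc (11.41) had the highest mean log2 signals.

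Ahnak was read by 1 probe set. It gave log2 signals of 6.38, 6.74 and 6.66 in KO livers on chow and 6.50, 6.83 and 6.58 in WT livers on chow. On HFD it gave 6.46, 6.52 and 6.62 in KO livers and 7.26, 7.06 and 6.74 in WT livers. KO and WT arrays overlapped on chow, with a difference of -0.04 ± 0.14 (log2, SE; limma, adjusted p = 0.971), and lay apart on HFD, where KO was lower by a log2 difference of -0.48 ± 0.14 (limma, adjusted p = 0.0483). A probe set outside the deleted part checks nothing, and whether this one lies outside it cannot be told from the sources used here.

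Between KO and WT livers on HFD, 17 of the 154 flanking genes changed at an adjusted p under 0.05 (limma, adjusted over all 22180 genes): 3 were higher in KO and 14 lower. Over all genes 10.5% were called, and over the 554 other chromosome 19 genes 12.5%. Lower in KO were 9.09% of flanking genes and 6.62% of all genes, and higher in KO were 1.95% of flanking genes and 3.89% of all genes. The flanking genes were thus called at about the share of the genome as a whole. The median difference of the flanking genes was -0.02 (log2), against 0.00 for all genes, and the median size of a difference was 0.14 in both sets. The KO and WT arrays did not overlap on HFD in 49 flanking genes, 31.8% against 28.6% of all genes, with KO lower in 33 (15.6% of all genes) and higher in 16 (13.0% of all genes). In 115 flanking genes the difference was smaller than 0.25 on the log2 scale, and in 150 smaller than 1.

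By position, 1 gene rose and 7 fell in KO livers on HFD among the 42 flanking genes between 6 and 7 Mb, and none rose and 6 fell among the 29 between 11 and 12 Mb, against 3.89% higher and 6.62% lower over all genes. The 4 bins between them held 17, 30, 6 and 30 flanking genes and 1, 1, 0 and 1 called genes. Of the 36 flanking genes within 1 Mb of the start of Ahnak 1 was called, and of the nearest 5 on each side 0. The 9 Slc22a, 3 Fads and 4 Olfr genes left out of the window are not in these counts. No flanking gene starts between -1.377 and -0.337 Mb from the start of Ahnak. Over all genes 10.5% were called, so in a set as small as the nearest 5 on each side a count of 0 says little. No test was made of these positions, and neighbours that are related genes, such as those of the Ms4a family, are not independent of each other.

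**Figure D1:**
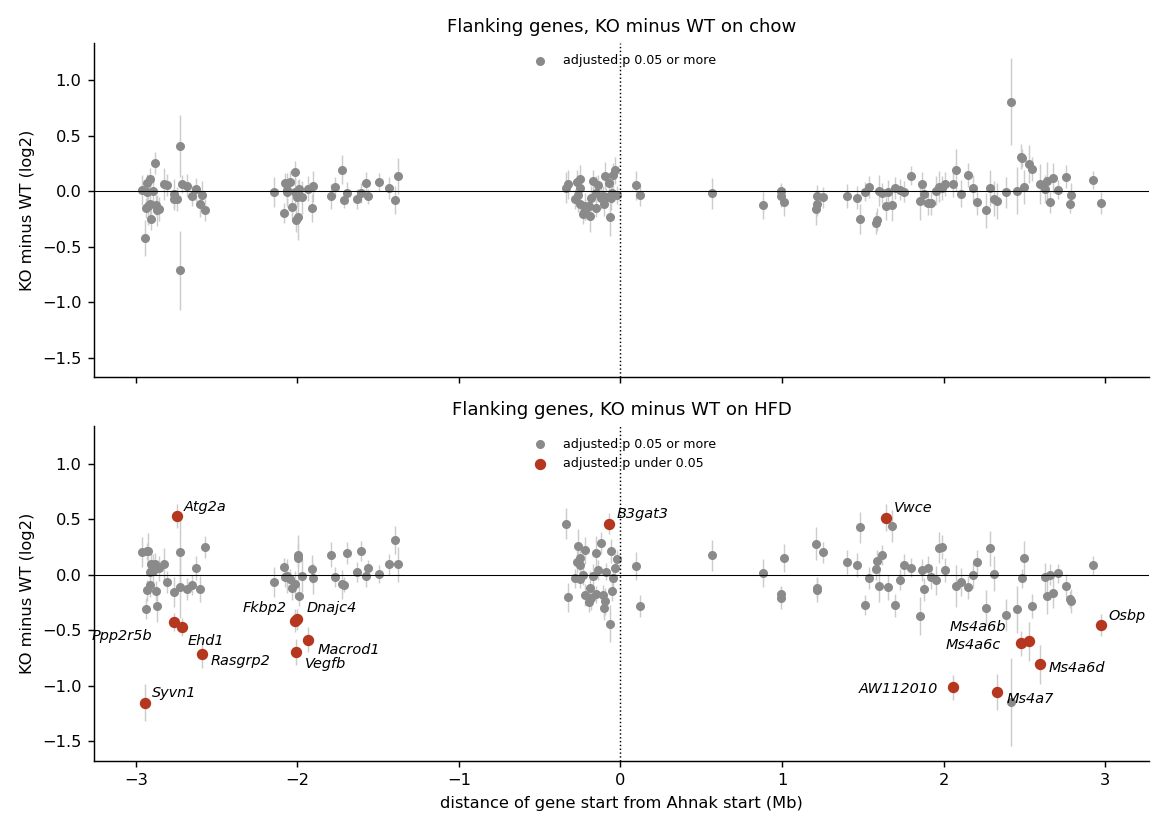
Difference between KO and WT livers (log2, vertical axis) for the 154 flanking genes, by the distance of each gene's start from that of Ahnak (Mb, horizontal axis, dotted line at Ahnak), on chow above and on HFD below. Points are fitted differences, bars the standard error and red points the 17 genes with an adjusted p under 0.05. No gene is red on chow, and on HFD 3 red points lie above 0 and 14 below it.

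Syvn1 is the 88th flanking gene out from Ahnak on the proximal side and showed the largest called difference. Its RefSeq promoter (GRCm38.p6, 250 bases before to 50 after the gene start) is shown because it holds the ER stress response element, the sequence at which ATF6 and XBP1 are known to act in mammalian cells. The search form was CCAAT and CCACG with 9 free bases between them, on both strands. It occurs in 0.137% of the promoters of 27025 genes, and Syvn1 is the only one of 112 flanking genes with a promoter in the table that holds it. The capitals mark the match, from 44 to 26 bases before the start, in the window chr19:6046326-6046625 on the plus strand. The motif was chosen with the results known, and the match is a description of the sequence.
Syvn1: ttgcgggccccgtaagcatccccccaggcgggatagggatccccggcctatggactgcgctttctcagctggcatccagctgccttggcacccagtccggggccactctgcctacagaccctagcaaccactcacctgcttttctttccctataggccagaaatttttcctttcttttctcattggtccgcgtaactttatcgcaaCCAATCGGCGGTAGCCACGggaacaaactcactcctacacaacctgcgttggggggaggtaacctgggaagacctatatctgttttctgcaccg

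Syvn1 gave log2 signals of 9.74, 9.52 and 9.50 in KO livers on HFD and 10.51, 10.72 and 10.98 in WT livers on HFD. Every KO array lay below every WT array by a wide margin, with a difference of -1.15 ± 0.16 (log2, SE), a 2.22-fold lower signal (limma, adjusted p = 0.000961). On chow it gave 9.39, 9.69 and 9.75 in KO livers and 9.75, 9.99 and 10.35 in WT livers. There the highest KO array reached the lowest WT array, and the difference of -0.42 ± 0.16 did not pass (limma, adjusted p = 0.63). The interaction, the KO minus WT difference on HFD less that on chow, was -0.73 ± 0.23 and did not pass either (limma, adjusted p = 0.114), so the 2 diets were not shown to differ for Syvn1.

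Syvn1 is 1 of 18 listed genes of the ER membrane, of lipids and of glycoproteins, all measured. Counting Syvn1, 1 rose and 3 fell in KO livers on HFD (3.89% and 6.62% of all genes did) and 14 did not pass, with a median difference of 0.02. B3gat3, which encodes the enzyme that completes the sugar linker of proteoglycans, is the 7th gene proximal to Ahnak and the called gene nearest to it. It gave 8.98, 9.15 and 9.27 in KO livers and 8.62, 8.77 and 8.62 in WT livers on HFD, with every KO array above every WT array, a difference of 0.46 ± 0.09 (limma, adjusted p = 0.00643). Osbp, which encodes a carrier of sterol between the ER and the Golgi, is the last flanking gene on the distal side. It fell in KO livers on HFD, with 9.71, 9.95 and 10.06, against 10.29, 10.44 and 10.36 in WT livers, a difference of -0.45 ± 0.10 (limma, adjusted p = 0.0111). Fkbp2, which encodes a peptidyl-prolyl isomerase of the ER, gave 9.84, 9.84 and 9.88 in KO livers and 10.31, 10.33 and 10.14 in WT livers on HFD. Its groups did not overlap, but the difference of -0.41 ± 0.10 (limma, adjusted p = 0.0235) lost its call when any 1 of 5 HFD arrays was left out (adjusted p up to 0.0851). Bscl2 did not pass on HFD, with a difference of -0.18 ± 0.08 (limma, adjusted p = 0.191).

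Among 16 measured genes of signalling, adhesion and growth factors, 3 fell in KO livers on HFD and none rose, with a median difference of -0.09; over all genes 6.62% fell and 3.89% rose. Vegfb, which encodes a growth factor of the vascular endothelial growth factor family, gave 8.87, 8.64 and 8.75 in KO livers and 9.33, 9.45 and 9.58 in WT livers on HFD. It fell by 0.70 ± 0.11 on the log2 scale, 1.62-fold (limma, adjusted p = 0.00238). On chow Vegfb gave 9.36, 9.22 and 9.53 in KO livers and 9.46, 9.62 and 9.78 in WT livers, which overlapped in 1 array (difference -0.25 ± 0.11, limma, adjusted p = 0.698). Vegfb also had the lowest adjusted p of the flanking genes between the diets in KO livers, as given below. Rasgrp2, which encodes an activator of the small GTPase Rap1, gave 6.88, 6.54 and 6.79 in KO livers and 7.38, 7.42 and 7.54 in WT livers on HFD, with no overlap (-0.71 ± 0.13, limma, adjusted p = 0.00388). Ppp2r5b, which encodes a regulatory subunit of protein phosphatase 2A, gave 8.15, 8.05 and 8.23 in KO livers and 8.49, 8.59 and 8.63 in WT livers on HFD. Its difference was -0.43 ± 0.08 (limma, adjusted p = 0.00603), and its second probe set gave a difference of the same sign, -0.24.

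Among 14 measured genes of membrane traffic, autophagy and protein folding, 1 rose and 2 fell in KO livers on HFD, against 3.89% and 6.62% of all genes. Atg2a, which encodes a lipid transfer protein needed for the growth of the autophagosome, was the gene that rose. It gave 9.62, 9.50 and 9.46 in KO livers and 9.0, 8.87 and 9.11 in WT livers on HFD (0.53 ± 0.10, 1.45-fold, limma, adjusted p = 0.00688). On chow its arrays overlapped, with 9.53, 9.63 and 9.43 in KO livers and 9.76, 9.42 and 9.62 in WT livers. Ehd1, which encodes an ATPase of endocytic recycling, fell in KO livers on HFD: its signals were 9.16, 9.09 and 8.99 in KO livers and 9.61, 9.44 and 9.61 in WT livers (-0.47 ± 0.08, limma, adjusted p = 0.00294). A second probe set of Ehd1 gave -0.87. Dnajc4, of the J-domain family of chaperone partners, gave 8.44, 8.22 and 8.42 in KO livers and 8.70, 8.72 and 8.86 in WT livers on HFD (-0.40 ± 0.09, limma, adjusted p = 0.0158). That call was lost without the KO HFD replicate 2 or the WT HFD replicate 3, the adjusted p then reaching up to 0.068.

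Macrod1, which encodes a mitochondrial ADP-ribose hydrolase, was the 1 called gene of 13 measured mitochondrial, redox, iron and energy genes, where 10.5% of all genes were called, and the median difference of the 13 on HFD was -0.18. It gave 8.49, 8.19 and 8.46 in KO livers and 9.02, 8.9 and 8.96 in WT livers on HFD, without overlap (-0.58 ± 0.11, limma, adjusted p = 0.00582). The mitochondrial ribosomal protein gene Mrpl49, with a difference of -0.30 ± 0.09 (limma, adjusted p = 0.0564), and Sdhaf2, which encodes an assembly factor of succinate dehydrogenase, with -0.27 ± 0.09 (limma, adjusted p = 0.071), did not pass. None of 18 measured genes of transcription, RNA processing and translation passed on HFD, Fau included (0.21 ± 0.08, limma, adjusted p = 0.103), and their median difference was 0.03. None of 8 genes of DNA replication, repair, chromatin and cell division passed. Among those, 2 probe sets of the flap endonuclease gene Fen1 differed in sign, 0.28 and -0.27. Vwce, which encodes a secreted protein with von Willebrand factor C and EGF domains, is in none of these lists. It rose, with 8.64, 8.56 and 8.35 in KO livers against 7.96, 7.94 and 8.10 in WT livers on HFD (0.52 ± 0.12, limma, adjusted p = 0.0197). That call was lost when any 1 of 4 HFD arrays was left out (adjusted p up to 0.0689).

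The distal end of the window held AW112010 and the Ms4a genes. AW112010 is a mouse transcript known to be induced in activated macrophages. Its RefSeq promoter is shown because it holds a form of the site bound by NF-κB, a transcription factor of inflammation. The form searched, GGGAA and TTCC with 1 free base between them on both strands, was chosen after the sequence was read. It occurs in 0.396% of the 27025 genes' promoters and in no other of the 112 flanking genes with one. Because the form was taken from this sequence, the match was fixed in advance and these shares depend on the form chosen. Binding of NF-κB was not tested. The capitals mark the match, from 70 to 61 bases before the start, in chr19:11050517-11050816 on the minus strand. The core of the interferon-stimulated response element, GAAA repeated after 2 free bases on both strands, occurs in 3.99% of promoters and in those of 2 flanking genes, Gpha2 and Ms4a18, neither of them called.
AW112010: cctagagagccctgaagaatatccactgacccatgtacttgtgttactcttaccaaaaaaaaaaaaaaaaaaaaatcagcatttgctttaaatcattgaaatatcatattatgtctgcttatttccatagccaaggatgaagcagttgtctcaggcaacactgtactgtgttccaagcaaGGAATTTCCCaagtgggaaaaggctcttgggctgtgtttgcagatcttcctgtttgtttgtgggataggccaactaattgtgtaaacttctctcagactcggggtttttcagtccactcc

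AW112010 had the smallest adjusted p of all flanking genes on HFD. It gave 9.76, 9.46 and 9.47 in KO livers and 10.69, 10.51 and 10.54 in WT livers, groups that lay far apart, with a difference of -1.01 ± 0.11 (log2, SE), 2.02-fold (limma, adjusted p = 0.000174). On chow it gave 9.745, 9.697 and 10.004 in KO livers and 9.683, 9.818 and 9.758 in WT livers, which overlapped (0.06 ± 0.11). The interaction was -1.08 ± 0.16 (limma, adjusted p = 0.00298), so the difference between genotypes itself differed between the diets.

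Of 20 measured Ms4a genes, 4 fell in KO livers on HFD and none rose, with a median difference of -0.15, while 6.62% of all genes fell and 3.89% rose. They were Ms4a7, Ms4a6c, Ms4a6b and Ms4a6d, all lying within 10 consecutive flanking genes. These 4 had mean signals above the dim mark. Most of the 20 Ms4a genes, Ms4a1 and Ms4a4c among them, lay at or below it, so the median is largely that of dim genes. Ms4a7 gave 5.64, 5.88 and 5.44 in KO livers and 6.6, 6.57 and 6.95 in WT livers on HFD (-1.05 ± 0.16, limma, adjusted p = 0.00165). Ms4a6c gave 6.28, 6.17 and 6.26 in KO livers and 6.79, 6.79 and 6.97 in WT livers (-0.62 ± 0.12, limma, adjusted p = 0.00496). In both genes the groups did not overlap, and the KO arrays of Ms4a7 lay around the dim mark of 5.61. Ms4a6d gave 5.72, 5.76 and 6.04 in KO livers and 6.42, 6.66 and 6.86 in WT livers on HFD (-0.81 ± 0.18, limma, adjusted p = 0.0128). Its adjusted p was 0.0575 without the WT HFD replicate 3. Ms4a6b was nearest to the limit, with 5.68, 5.0 and 5.67 in KO livers against 5.88, 6.15 and 6.12 in WT livers (-0.60 ± 0.17, limma, adjusted p = 0.0451). That call was lost in 9 of 12 fits with 1 array left out, the adjusted p then reaching up to 0.13. Ms4a4c had a larger difference with a wide spread, -1.14 ± 0.39, and did not pass (limma, adjusted p = 0.0915).

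The list of leukocyte genes of the window had 25 measured genes. It took in every Ms4a gene by its symbol, whether or not leukocytes use it. Of the 25, the 4 Ms4a genes fell on HFD (6.62% of all genes did) and 21 did not pass, with a median difference of -0.11. The B-cell gene Ms4a1, at or below the dim mark on average, differed by -0.30 ± 0.16 (limma, adjusted p = 0.298). The T-cell genes Cd5 and Cd6 differed by -0.04 ± 0.09 and 0.07 ± 0.08 (limma, adjusted p = 0.834 and 0.689). Leukocyte markers outside the window were read beside them. Of 6 measured markers of recruited macrophages 4 were lower in KO livers on HFD. The mean log2 signal over the list was then 6.09 to 6.20 in KO livers and 6.66 to 7.24 in WT livers. On chow it was 5.99 to 6.09 in KO and 5.92 to 6.07 in WT livers. Between WT livers on HFD and on chow, 5 of the 6 were higher and 1 lower, against 4.02% and 2.94% of all genes. The mean does not show that lower marker. Of 11 markers of Kupffer cells and other macrophages none passed (9.19 to 9.44 in KO livers and 9.34 to 9.81 in WT livers on HFD), and of 6 B-cell markers none passed (6.59 to 6.82 in KO livers and 6.61 to 6.73 in WT livers). Of 8 T-cell markers 1 was higher, where 3.89% of all genes were (5.94 to 6.15 in KO livers and 6.02 to 6.11 in WT livers). None of 5 neutrophil markers passed. Their mean lay slightly lower in each KO liver (4.82 to 4.90) than in each WT liver (4.93 to 5.03) on HFD. All these means were below the dim mark of 5.61, and on chow they ran from 4.90 to 4.99 in KO and 4.86 to 5.05 in WT livers. None of these markers was listed at 0. In whole liver, fewer cells of a type and less RNA per cell cannot be told apart, and the part of the recruited macrophage markers in the Ms4a and AW112010 differences was not tested.

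**Figure D2:**
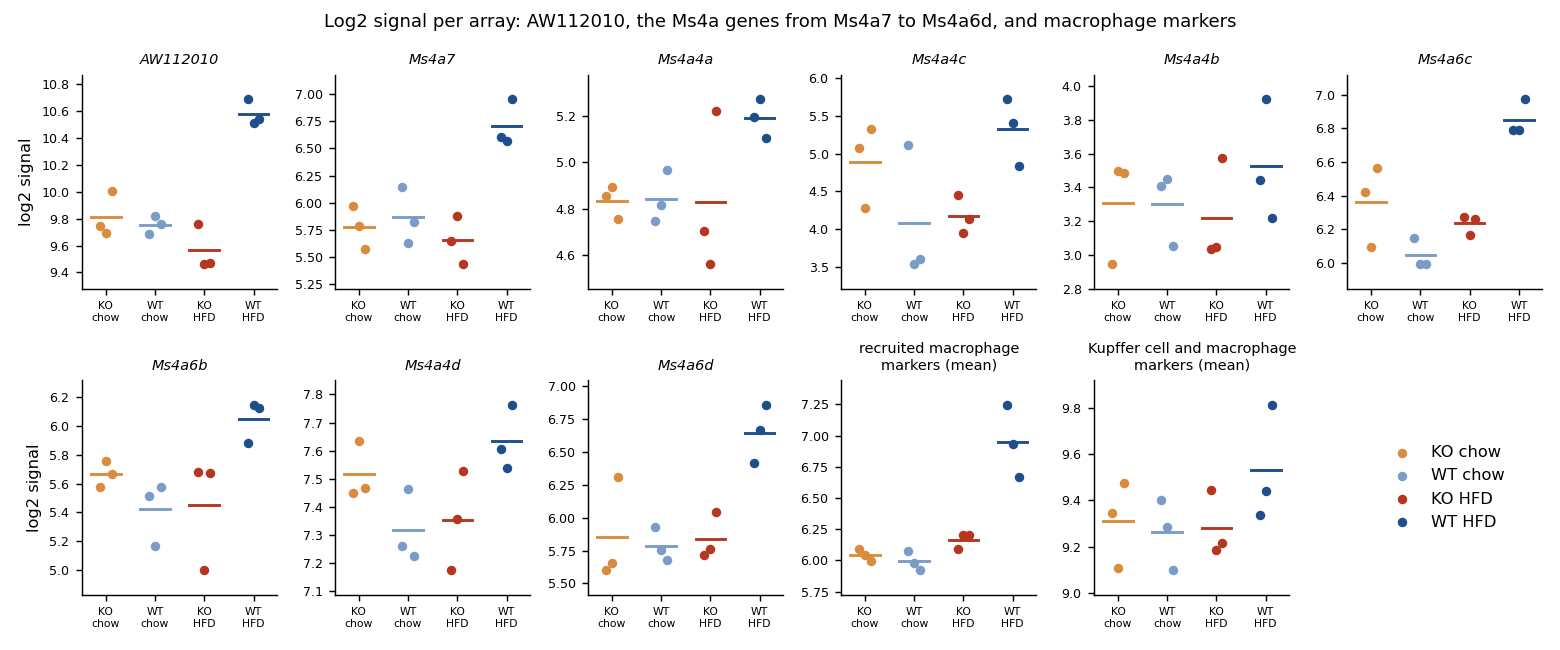
Log2 signal on each array (vertical axes, scaled per panel) for AW112010, every measured Ms4a gene from Ms4a7 to Ms4a6d, and the mean over 2 lists of macrophage markers, in KO and WT livers on chow and on HFD. Points are single mice and lines group means. In AW112010, Ms4a7, Ms4a6c, Ms4a6b, Ms4a6d and the recruited macrophage markers, all 3 WT HFD arrays lie above the other 9.

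On HFD, some markers of other cell types were lower in KO livers as well, where 6.62% of all genes were lower and 3.89% higher. Of 7 stellate cell markers 3 were lower in KO livers (mean log2 signal 8.41 to 8.60 in KO livers and 8.94 to 9.21 in WT livers), and of 6 dividing cell markers 5 were lower (5.79 to 5.93 in KO livers and 6.56 to 6.61 in WT livers). Of 6 endothelial markers 1 was lower (9.27 to 9.43 in KO livers and 9.33 to 9.42 in WT livers), and none of 4 cholangiocyte or 3 adipocyte markers passed. None of 7 hepatocyte markers passed, at 13.69 to 13.77 in KO livers and 13.73 to 13.77 in WT livers, the highest means among the marker lists. The part of these markers in the called flanking genes was not tested. In all 17 called genes the KO HFD and WT HFD arrays did not overlap, as in 99.8% of all genes called on HFD. In 16 of them (94.1%, against 76.2% of the 2331 genes called over the whole table) the 3 WT HFD arrays lay outside all 9 other arrays, Vegfb being the exception. The 3 KO HFD arrays lay outside all others in Vegfb and Ehd1 alone, 11.8% against 14.2% of those 2331 genes.

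**Figure D3:**
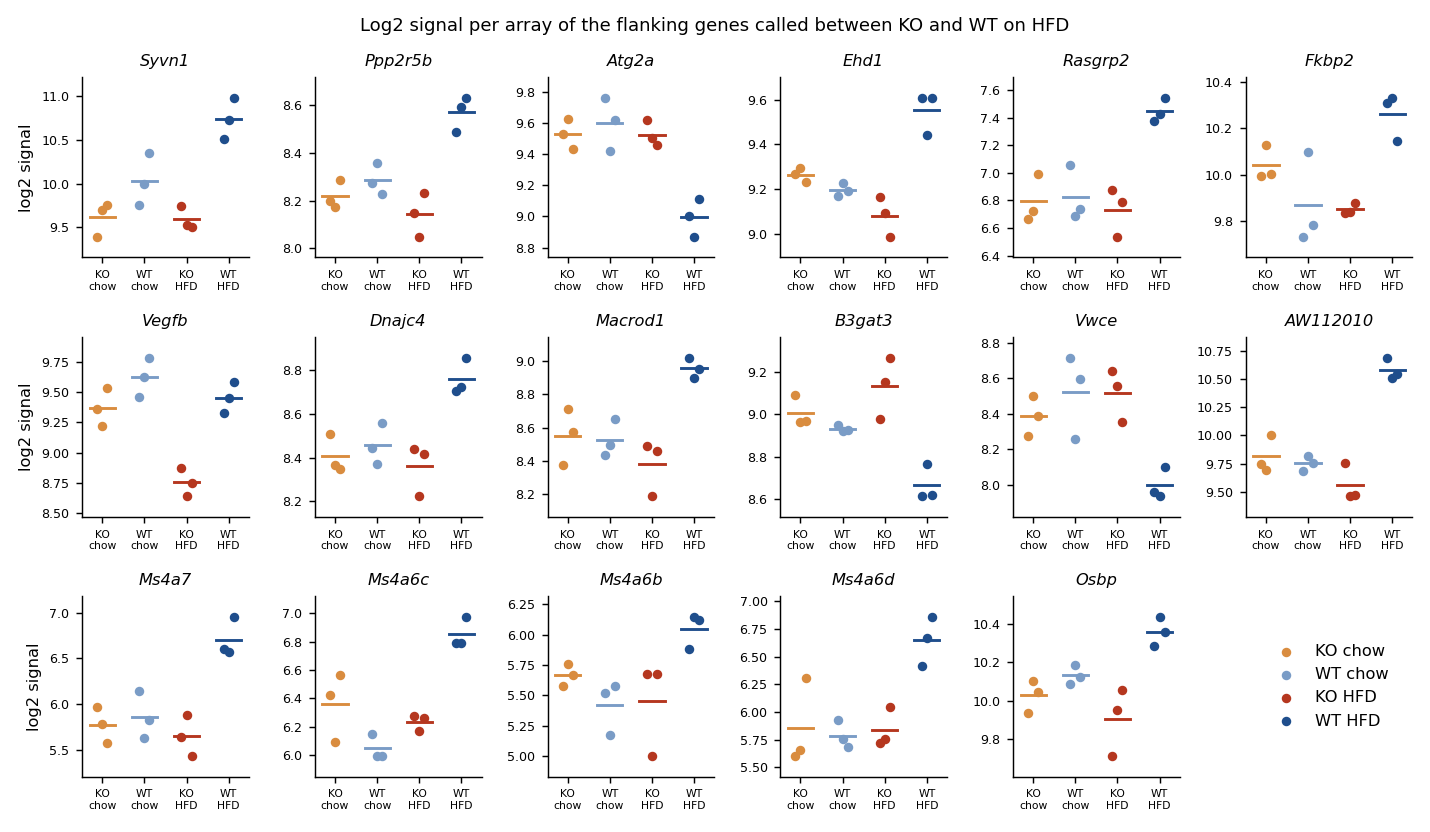
Log2 signal on each array (vertical axes, scaled per panel) for the 17 flanking genes called between KO and WT livers on HFD, in their order along the chromosome from the proximal to the distal end. Points are single mice and lines group means. The WT HFD arrays lie apart from the other groups in every panel but that of Vegfb, where the KO HFD arrays are lowest.

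On chow, 0 of the 154 flanking genes passed at an adjusted p under 0.05 (limma), against 0.00902% of all genes. At an unadjusted p under 0.05 there were 9 flanking genes, 5.84%, against 7.02% of all genes. The KO and WT arrays did not overlap on chow in 17 flanking genes, against 13.2% of all genes. The median size of a difference was 0.07 (log2) among flanking genes and 0.09 among all genes. In 140 flanking genes the 95% interval of the difference lay within 0.5 of 0 on the log2 scale, and in 151 within 1. Apart from gene models and clones, the smallest adjusted p-values belonged to Tmem138, which encodes a membrane protein of the cilium (-0.29 ± 0.10, adjusted p = 0.583), and Ms4a6c (0.31 ± 0.12, adjusted p = 0.611). Ms4a6c thus had a positive difference on chow and a negative one on HFD. Its chow signals were 6.42, 6.09 and 6.57 in KO livers and 6.15, 5.99 and 6.00 in WT livers, which overlapped in 1 array. The widest chow differences were those of Ms4a4c (0.81 ± 0.39, adjusted p = 0.726) and of the hairpin of the liver microRNA gene Mir192 (-0.71 ± 0.36, adjusted p = 0.736), both with a wide spread between mice and both picked out after their values were seen.

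For some of the genes nearest to Ahnak, 95% intervals are given to bound the difference in signal. On the proximal side the order outward was Eef1g, Tut1, Mta2, a gene model and Eml3, and on the distal side Scgb1a1, Asrgl1, the pseudogene Stxbp3-ps, Incenp and Fth1. Eef1g, which encodes a subunit of translation elongation factor 1, gave 8.58, 8.68 and 8.50 in KO livers and 8.63, 8.60 and 8.62 in WT livers on chow. On HFD it gave 8.63, 8.68 and 8.61 in KO livers and 8.46, 8.44 and 8.58 in WT livers. The KO arrays lay slightly above the WT arrays on HFD and overlapped with them on chow, and the 95% intervals of the differences ran from -0.20 to 0.14 on chow and from -0.02 to 0.32 on HFD.

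Tut1, which encodes a terminal uridylyltransferase of U6 RNA, had intervals from -0.08 to 0.46 on chow and from -0.21 to 0.33 on HFD, and Mta2, of the NuRD chromatin complex, from -0.11 to 0.40 and from -0.28 to 0.22. Asrgl1, which encodes an asparaginase, gave 6.890, 7.067 and 7.226 in KO livers and 7.422, 7.370 and 7.231 in WT livers on HFD. Every KO array lay below every WT array, the closest pair by very little, and the difference of -0.28 ± 0.10 did not pass (limma, adjusted p = 0.087). Fth1, the flanking gene with the highest signal, gave 13.27, 13.37 and 13.25 in KO livers and 13.43, 13.48 and 13.51 in WT livers on HFD, without overlap but with a small difference, -0.18 ± 0.07 (limma, adjusted p = 0.162). On chow the 95% interval for Fth1 ran from -0.16 to 0.16. Scgb1a1, an airway secretory gene, was dim in all groups, and Incenp, of the chromosomal passenger complex of dividing cells, lay below the dim mark on average. The differences of Scgb1a1 and Incenp therefore say little about expression.

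Chow and HFD livers share no arrays, so the 2 differences of a gene can be set side by side. They had the same sign in 73 of 154 flanking genes, 47.4%, against 50.7% of all genes, and in 8 of the 17 genes called on HFD, 47.1%, against 54.2% of all genes called on HFD. KO and WT arrays did not overlap, in the same direction on both diets, for 5 flanking genes, 3.25%, against 2.74% of all genes. These were B3gat3, higher in KO, and Mrpl49, Mrpl16, Bscl2 and the kinase gene Mark2, lower in KO. Bscl2 gave 11.44, 11.41 and 11.42 in KO livers and 11.53, 11.50 and 11.70 in WT livers on chow, and 11.63, 11.68 and 11.64 in KO livers and 11.79, 11.81 and 11.87 in WT livers on HFD. Its arrays lay close together within each group except WT on chow (SD 0.11). The mean differences were -0.15 ± 0.08 on chow and -0.18 ± 0.08 on HFD. The difference averaged over both diets was -0.16 for Bscl2 and did not pass (limma, adjusted p = 0.128), and it was 0.27 ± 0.06 for B3gat3 and did (limma, adjusted p = 0.0326).

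**Figure D4:**
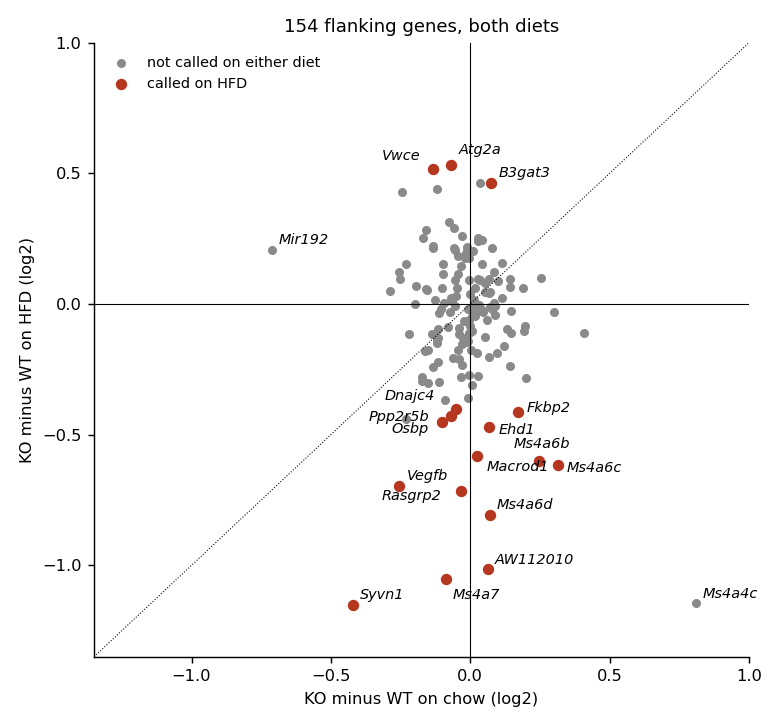
Difference between KO and WT livers on HFD (log2, vertical axis) against that on chow (log2, horizontal axis) for the 154 flanking genes. Red points are the 17 genes called on HFD, and the dotted line marks equal differences. Apart from Syvn1 and Vegfb, the genes lowest on HFD lie near or to the right of 0 on chow, and B3gat3 is the 1 of 3 higher called genes to the right of 0.

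Averaged over both diets, 8 flanking genes passed (limma, adjusted p under 0.05), 5.19% against 4.81% of all genes. In KO 1 was higher and 7 were lower, against 1.45% and 3.36% of all genes. Syvn1 (-0.79 ± 0.12, adjusted p = 0.00293), Vegfb (-0.47 ± 0.08, adjusted p = 0.00664), AW112010 (-0.48 ± 0.08, adjusted p = 0.00526) and Ms4a7 (-0.57 ± 0.12, adjusted p = 0.0149) kept this call without any single array. Ppp2r5b, Rasgrp2, Osbp and B3gat3 passed with all arrays and lost the call in 7, 9, 11 and 10 of the 12 fits with 1 array left out. For AW112010 and Ms4a7 the average was carried by HFD, since on chow their differences were 0.06 and -0.09. The same held for Rasgrp2, Ppp2r5b, B3gat3 and Osbp, with -0.03, -0.07, 0.08 and -0.10 on chow. Syvn1 and Vegfb had larger chow differences, -0.42 and -0.25, which did not pass on chow.

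The genotype difference itself differed between the diets in 6 flanking genes (limma, interaction, adjusted p under 0.05), 3.90% against 3.53% of all genes. They were Atg2a, with a positive interaction (1.43% of all genes), and Ehd1, Fkbp2, AW112010, Ms4a7 and Ms4a6c, with negative ones (2.1% of all genes). The interaction of Ms4a6c was -0.93 ± 0.16 (adjusted p = 0.0102), and those of AW112010 and Ms4a6c passed in all 12 fits with 1 array left out. Atg2a, Ehd1, Fkbp2 and Ms4a7 lost it in 11, 6, 11 and 9 of those fits. The other 11 genes called on HFD were not shown to differ between the diets.

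Between WT livers on HFD and on chow, 13 flanking genes passed (limma), 8.44% against 6.96% of all genes. On HFD 10 were higher and 3 lower, against 4.02% and 2.94% of all genes. This comparison shares the WT HFD arrays with that of KO and WT on HFD, so the 2 are not independent, and opposite signs follow in part from the shared arrays. AW112010 was higher on HFD by 0.83 ± 0.11 (adjusted p = 0.00106), Ms4a7 by 0.84 ± 0.16 (adjusted p = 0.0096), Ms4a6c by 0.81 ± 0.12 (adjusted p = 0.00167) and Syvn1 by 0.71 ± 0.16 (adjusted p = 0.0214). Ms4a6d, Ms4a6b, Rasgrp2, Macrod1, Fkbp2 and Ehd1 were higher as well, by 0.36 to 0.86. With 1 array left out, AW112010, Ms4a7, Ms4a6c and Atg2a kept this call in all 12 fits. Fkbp2 lost it in 10 of them (adjusted p up to 0.138), Ms4a6b in 9 (up to 0.144), Macrod1 in 7 (up to 0.118), and Syvn1, Ehd1 and Vwce in 4 each (up to 0.0943). Tm7sf2 lost it in 3, and Rasgrp2 and Ms4a6d in 2 each (up to 0.0605). Atg2a and Vwce were lower, with differences of -0.60 ± 0.10 and -0.52 ± 0.12 (adjusted p = 0.00498 and 0.0257). The remaining lower gene was Tm7sf2, a sterol reductase gene of cholesterol synthesis, which was not called between genotypes. It gave 10.06, 10.25 and 10.38 in WT livers on HFD and 11.13, 10.89 and 11.07 in WT livers on chow, with every HFD array lower (-0.80 ± 0.17, adjusted p = 0.0137). In KO livers it gave 10.86, 10.05 and 10.43 on HFD and 10.96, 10.92 and 10.81 on chow, with a difference of -0.45 ± 0.17 that did not pass (adjusted p = 0.478).

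Between KO livers on HFD and on chow, 0 flanking genes passed (limma), against 0.243% of all genes. At an unadjusted p under 0.05 there were 16, 10.4% against 8.51% of all genes. Vegfb came closest, with 8.87, 8.64 and 8.75 on HFD against 9.36, 9.22 and 9.53 on chow, groups that did not overlap, a difference of -0.61 ± 0.11 (adjusted p = 0.0603). Its difference between the diets in WT livers was -0.17 ± 0.11 (adjusted p = 0.458), and the interaction of -0.44 ± 0.16 did not pass (adjusted p = 0.173). Syvn1 and Atg2a differed little between the diets in KO livers, by -0.02 ± 0.16 and 0.00 ± 0.10.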

How the data were processed

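Total RNA of 12 livers was read on whole-transcript mouse arrays, 1 mouse per array. The deposited log2 signals of 41345 probe sets were produced by the authors using oligo (submitters' processing notes). The sources used here give neither its version nor the background correction and normalization, and the values were used as deposited. Exactly 1 symbol stood beside 23521 probe sets in the array annotation, several beside 1814 and none beside 16010. Positions, symbols and promoters came from RefSeq tables for GRCm38.p6, matched by gene number for 23328 probe sets. A further 149 matched by symbol. The probe set with the highest mean represented each of 22180 genes, and 7 flanking genes had over 1.

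A single limma model (version 3.58.1, R 4.3.3; functions lmFit and eBayes) covered all genes and the 4 groups, with 6 contrasts and Benjamini-Hochberg adjustment within each. A gene was called at an adjusted p under 0.05, and errors are standard errors of the fit. The code was tested on simulated data. The members and lists were chosen with earlier results of these data known. Named were the called genes, the nearest 5 genes on each side, the genes with arrays apart on both diets, the brightest 5, and up to 4 genes of a list. Gene models and clones were only counted.

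The alternatives were trend and robust eBayes, a replicate block, array weights, median centring, quantile normalization, averaging the probe sets of a gene, restricting the test to genes above the median signal, to the arrays compared or to changes of 2-fold or more, and leaving out each array. Samples with the same number did not deviate together (correlations between -0.064 and 0.08 over 18 pairs). The main model did not pair mice by number, and this check cannot tell whether same-numbered mice were related. No scan date is given here, so none could be used as a batch.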

Additional observations from a re-analysis of the deposited data

Results flagged for a closer look

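In 6 flanking genes the KO minus WT difference on HFD differed from that on chow by limma's interaction term. The interaction (log2, HFD minus chow) was 0.60 for Atg2a, -0.54 for Ehd1, -0.58 for Fkbp2, -1.08 for AW112010, -0.97 for Ms4a7 and -0.93 for Ms4a6c. For the same genes in this order (Atg2a, Ehd1, Fkbp2, AW112010, Ms4a7, Ms4a6c) the KO minus WT differences on HFD were 0.53, -0.47, -0.41, -1.01, -1.05 and -0.62, and those on chow -0.07, 0.07, 0.17, 0.06, -0.09 and 0.31. Adjusted p-values of the interaction were 0.0468 for Atg2a, 0.0236 for Ehd1, 0.0482 for Fkbp2, 0.00298 for AW112010, 0.0412 for Ms4a7 and 0.0102 for Ms4a6c.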

How the results depend on the processing

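The count on chow stayed at 0 under every alternative run. On HFD the 17 called flanking genes became 3 at a change of at least 2-fold (Syvn1, AW112010 and Ms4a7), and ranged from 14 to 18 with 1 array left out. Trend and robust eBayes gave 23 on HFD, 14.9% against 12.5% of all genes, and genes above the median signal gave 22 of 93, 23.7% against 26.3% of all genes above it. The mean of both diets moved from 8 to 15 (trend and robust, 9.74% against 6.65% of all genes), 14 (genes above the median, 15.1% against 14.5%) and 0 (2-fold), the interaction from 6 to 10 (genes above the median, 10.8% against 12.6%) and 1 (2-fold), and HFD against chow in WT from 13 to 0 (2-fold). HFD against chow in KO gave 1 gene, Vegfb, under trend and robust, array weights, median centring and genes above the median. The replicate block gave 0 on chow, 17 on HFD, 6 for the mean, 4 for the interaction, 12 in WT and 0 in KO between the diets. With 1 array left out the counts ran from 4 to 7 for the mean, from 2 to 6 for the interaction, from 5 to 13 for HFD against chow in WT and from 0 to 1 in KO. The mean fell to 4 without KO HFD 2, KO chow 1 or 2, WT HFD 3 or WT chow 1, and to 5 without WT HFD 1 or 2 or WT chow 2 or 3. The interaction fell to 2 without KO chow 2, WT HFD 1 or 3 or WT chow 3, and to 3 without KO HFD 1, 2 or 3, KO chow 3 or WT HFD 2. HFD against chow in WT fell to 5 without WT chow 3, 6 without WT HFD 3, 7 without WT HFD 1 or WT chow 1 and 8 without WT HFD 2, and that in KO became 1 without WT chow 1. Of the 17 called genes 12 kept their HFD call without any single array. No value among the 77 named genes changed direction while called. The 2-fold limit can only lower a count, by construction. For the other alternatives, fewer genes or arrays included, the cause of a changed count was not tested. Dim genes limit what the counts can show: 45 flanking genes lay at or below the olfactory mark, and 0 of them were called on HFD. Of the flanking genes above the mark 15.6% were called, against 15.6% of all genes above it.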
